A study of Mus musculus with 10 samples.

Results

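Most nuclear genes for respiratory complex I carry symbols that begin with Nduf, and these genes were followed in livers of mice with 0, 1 or 2 S400D alleles of Htra2. Every gene of the deposited table with such a symbol was taken, which gave 48 of 19271 genes, with all transcripts of a gene summed. They comprise 38 genes for subunits of complex I, 8 assembly factors, and Ndufa4 and Ndufa4l2. Among the 38, Ndufb4 and its near-identical copies Ndufb4b and Ndufb4c are counted as separate genes. Of the 48, 46 lie on autosomes, and Ndufa1 and Ndufb11 lie on the X chromosome. A further 6 Nduf symbols of RefSeq and the subunits encoded by mitochondrial DNA were not analysed here.

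Liver RNA of 10 C57BL6/N mice aged 2 months was sequenced after selection of polyadenylated RNA. There were 3 wild-type males (WT/WT), 3 heterozygous males (S400D/WT), 3 homozygous males (S400D/S400D) and 1 homozygous female (S400D/S400D). Htra2 encodes HtrA2/Omi, a serine protease of the mitochondrial intermembrane space, and S400D replaces a serine of that protease by aspartate. The labels do not say how the allele was made, where the wild-type animals came from, which animals were littermates or at what hour livers were taken. Replicates are numbered with no word on separate litters or collections, so each p-value reflects the spread among these animals alone, which may be technical.

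Complex I is the entry point of electrons from NADH into the respiratory chain. Its N module oxidises NADH, its Q module passes the electrons through iron-sulfur clusters to ubiquinone, and its membrane arm, with a proximal and a distal part, pumps protons across the inner mitochondrial membrane. A conserved set of core subunits carries the catalysis, accessory subunits surround the core, and assembly factors help to build the complex without remaining in it. Hepatocytes are rich in mitochondria and use the chain for ATP production and for the oxidation of fatty acids.

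The libraries held 16240441 to 17264289 expected counts (estimated read counts per transcript), of which the 48 genes took 0.296% to 0.368%. Htra2 itself lay between 12.3 and 17.3 CPM (expected counts adjusted for library size and TMM factor) in all 10 livers, and gene sums do not show which allele was read. Hepatocyte markers such as Alb and Ttr were abundant in every library. The 6 hepatocyte markers summed to 102660 to 116820 CPM in wild-type males, 79816 to 104610 CPM in heterozygotes and 118200 to 140670 CPM in homozygous males, so the homozygous males lay above both other groups, and the sum was 110050 CPM in the homozygous female. Of the 6, 1 was above all wild-type males in every homozygous male, namely Alb, with 84700 to 106080 CPM against 70057 to 79979 CPM. The 3 striated muscle markers reached at most 0.225 CPM in sum, the 3 adipose markers at most 0.0586 CPM and the 3 pancreatic markers at most 1.20 CPM. The summed level of 5 Kupffer cell and macrophage markers was 301, 108 and 86.1 CPM in the wild-type males, 112 to 282 CPM in heterozygotes and 253 to 264 CPM in homozygous males, and 1 of the 5 was above all wild-type males in every homozygous male. The 4 sinusoidal endothelial markers summed to 69.6 to 157, 88.6 to 137 and 155 to 159 CPM in the same order, and the 3 cholangiocyte markers to 4.00 to 5.34, 3.10 to 8.20 and 5.43 to 8.32 CPM. The 4 stellate and matrix markers summed to 85.3 to 233, 172 to 289 and 200 to 364 CPM. The 3 lymphocyte markers summed to 4.50 to 12.1, 4.67 to 11.4 and 9.08 to 12.7 CPM. In each of the endothelial, cholangiocyte and stellate lists 1 marker was above all wild-type males in every homozygous male, and in the lymphocyte list 0. In bulk liver, fewer cells of a type and less RNA per cell cannot be told apart. The circadian clock gene Arntl lay at 2.45 to 4.25 CPM in wild-type males and at 17.4 to 38.1 CPM in homozygous males. Dbp, a clock output gene, lay at 128 to 158 CPM and at 1.27 to 12.9 CPM in the same groups. Heterozygous male 2 resembled the homozygous males in both (Arntl 31.5 CPM, Dbp 6.02 CPM), and the homozygous female resembled wild type (1.59 and 205 CPM). The part of these markers and clock genes in the levels of Nduf genes was not tested.

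The promoters of 5 members are shown because their transcripts had the 5 smallest p-values of the members between homozygous and wild-type males, and because they differ in whether they hold a site for NRF1, a known activator of respiratory chain genes. Each is the 200 bases before the annotated start, from RefSeq on GRCm38.p6, written 5′ to 3′ on the strand of the gene. Capitals mark matches, on either strand, to NRF1 (GCGCANGCGC), ETS/GABP (CCGGAAG), YY1 (AAGATGGC) or ERRA (AAGGTCA). The sequences lie at chr1:58586197-58586396 (plus strand) for Ndufb3, chr9:108567437-108567636 (minus) for Ndufaf3, chr6:24527691-24527890 (minus) for 1 of the 2 listed starts of Ndufa5, chr4:123718187-123718386 (minus) for Ndufs5 and chr2:36049339-36049538 (minus) for Ndufa8.
Ndufb3: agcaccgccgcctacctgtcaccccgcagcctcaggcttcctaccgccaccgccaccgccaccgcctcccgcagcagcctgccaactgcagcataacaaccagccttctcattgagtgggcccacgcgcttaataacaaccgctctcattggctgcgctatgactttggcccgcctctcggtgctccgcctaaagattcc
Ndufaf3: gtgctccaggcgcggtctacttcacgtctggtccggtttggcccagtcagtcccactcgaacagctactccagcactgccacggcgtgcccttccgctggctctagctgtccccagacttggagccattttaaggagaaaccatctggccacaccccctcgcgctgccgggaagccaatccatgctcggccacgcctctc
Ndufa5: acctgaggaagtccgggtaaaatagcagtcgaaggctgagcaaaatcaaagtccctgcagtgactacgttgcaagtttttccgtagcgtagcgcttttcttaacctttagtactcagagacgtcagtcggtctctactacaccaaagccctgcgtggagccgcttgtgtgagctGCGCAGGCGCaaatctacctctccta
Ndufs5: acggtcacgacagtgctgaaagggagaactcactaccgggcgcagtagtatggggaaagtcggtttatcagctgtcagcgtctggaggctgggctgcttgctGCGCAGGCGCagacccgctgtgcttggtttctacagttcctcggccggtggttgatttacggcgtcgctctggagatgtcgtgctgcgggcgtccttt
Ndufa8: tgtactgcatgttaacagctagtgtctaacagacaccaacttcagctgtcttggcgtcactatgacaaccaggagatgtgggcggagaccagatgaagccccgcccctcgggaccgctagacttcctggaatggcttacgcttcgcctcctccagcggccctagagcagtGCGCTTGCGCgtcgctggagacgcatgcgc

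Over the whole listed window, from 250 bases before to 50 bases after the start, promoters of 41 members were found in RefSeq. The NRF1 letters stood in 9 of the 41 (22%), against 5.19% of 27025 genes with a listed promoter. YY1 letters stood in 8 (19.5%, against 3.19%), ETS/GABP letters in 6 (14.6%, against 9.93%) and ERRA letters in 3 (7.32%, against 5.38%). CREB letters (TGACGTCA) stood in 3 members (7.32%, against 2.03%) and SP1 letters (GGGCGG) in 21 (51.2%, against 38.2%). None of NRF1, ETS/GABP, YY1 and ERRA matched in the windows of Ndufb3 and Ndufaf3. The 9 members with NRF1 letters were Ndufa5, Ndufa6, Ndufa8, Ndufa11, Ndufaf4, Ndufaf5, Ndufb4, Ndufs5 and Ndufs6. The part of such letters in the levels of these genes was not tested. A match is a description of these letters and not of a bound site.

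Levels are compared between genes in TPM, which is scaled to transcript length. In wild-type males the subunits of the 4 structural modules had similar medians, 190 TPM in the N module, 205 TPM in the Q module, 240 TPM in the proximal arm and 208 TPM in the distal arm. The Q module was the most even, from 152 to 227 TPM, whereas the N module spanned 12.5-fold, from Ndufs4 at 51.0 TPM to Ndufa6 at 635 TPM. Assembly factors were lower, with a median of 14.9 TPM and a range from 4.49 TPM (Ndufaf5) to 58.6 TPM (Ndufaf8). The 7 core subunits had a median of 163 TPM and the 31 genes for accessory subunits one of 220 TPM. Across the 48 members, TPM was lower where the transcript was longer (Spearman rho of -0.534 across genes, which are not independent replicates). Length enters the TPM scale itself. The 8 assembly factors, lower in TPM, also had longer transcripts, with a median effective length of 1075 bases against 420.5 for the 38 subunit genes. The rho does not separate these from a relation of level to length.

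Ndufa4, first counted as a complex I subunit and now known in complex IV, stood at the top with 1572, 1424 and 1720 TPM in the wild-type males. Ndufa3, a small accessory subunit of the proximal arm, followed with 813, 657 and 705 TPM. Its effective length of 92 bases was the shortest of the members. In CPM, which is not scaled to length, Ndufa3 had 47.7 to 55.0 in wild-type males, against 129 to 153 for Ndufa6. Ndufa6, an LYR-motif protein of the N module, had 618, 573 and 714 TPM, a range that overlapped that of Ndufa3. At the bottom stood Ndufaf5, a hydroxylase that modifies the core subunit Ndufs7, with a mean of 4.49 ± 0.209 TPM (SD, n = 3). Ndufa4l2, the hypoxia-inducible relative of Ndufa4, had 2.13 ± 0.538 TPM. Ndufb4b, a near-identical copy of Ndufb4, had 1.37 ± 1.34 TPM and between 0 and 12 expected counts. Of the 47 pairs of neighbours in the order of wild-type TPM, 37 overlapped in their wild-type animals, so most of the order between neighbours is not resolved.

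**Figure D1:**
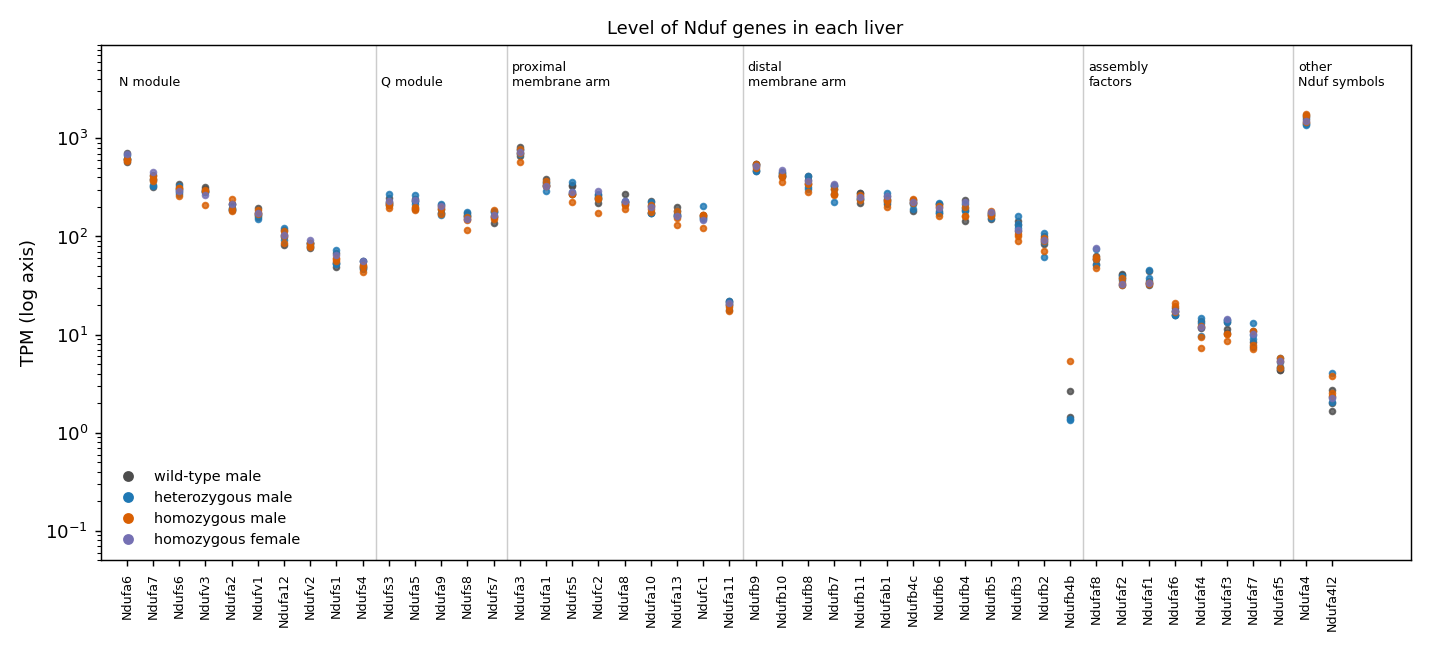
TPM (log axis) of 47 of the 48 Nduf genes in each of the 10 livers, grouped by module and ordered by wild-type mean. Points are animals, and values of 0, which occur in Ndufb4b, are not drawn. Most subunits lie between 100 and 1000 TPM and the 8 assembly factors below them.

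The spread between animals was small for most members. The median coefficient of variation of TPM over the 9 males was 10.6%. It was 131% for Ndufb4b, which is near 0. Among the 47 members that passed the filter on low counts described below, it was largest for Ndufa4l2 (30.7%), Ndufaf7 (21.0%) and Ndufaf4 (20.1%), and it was 4.99% for the core subunit Ndufv2. Ndufa4l2 had 1.35, 1.16 and 0.862 CPM in wild-type males, 1.17, 2.07 and 1.13 CPM in heterozygotes and 1.09, 1.76 and 1.27 CPM in homozygous males, with all groups overlapping.

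Nduf transcripts mostly had lower levels in homozygous than in wild-type males, but none passed the main test. The differences with the smallest p-values were those of Ndufb3 of the distal arm (log2 fold change of -0.54), the assembly factor Ndufaf3 (-0.46) and Ndufa5 of the Q module (-0.34). Of the 48 members, 47 passed the filter on low counts, and Ndufb4b did not. Between homozygous and wild-type males, edgeR's quasi-likelihood test with Benjamini-Hochberg adjustment over 12427 genes called 0 of the 47 at an adjusted p under 0.05, and it called 0% of all genes. DESeq2 called 1 member, Ndufb3, among 310 of 16474 genes, and limma-voom called 0 genes. At an unadjusted p under 0.05, 16 members (34.0%) were lower in homozygotes, against 8.08% of all genes, and 0 were higher, against 6.82%. The log2 fold change was negative for 43 members (91.5%), against 49.3% of all genes, with a median of -0.233 beside 0.004 over all genes. In 25 members (53.2%) every homozygous male lay below every wild-type male, against 11.5% of all genes, and in 0 members every homozygous male lay above, against 9.27%.

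The count of 16 depended on single animals. Leaving out 1 animal at a time, it ranged from 8 to 23. It was 9 without homozygous male 1, 9 without wild-type male 2 and 8 without wild-type male 3, and the median without homozygous male 1 was -0.154. With library size as the only scaling, where the median of all genes was 0.064, the count was 9 and the median of the members was -0.172. By limma on log2(TPM + 1), where the median of all genes was 0.135, the count was 1 and the median of the members was -0.082.

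Heterozygous males differed from wild type by a median of -0.033 over the Nduf genes. Between these groups edgeR called 0 members and 0% of all genes, and at an unadjusted p under 0.05 it had 0 lower (2.52% of all genes) and 0 higher (1.67%). By DESeq2 and limma-voom 0 members were called as well. The log2 fold change was negative for 29 members (61.7%), against 48.4% of all genes, and its median was -0.033 beside 0.007 over all genes. With library size as the only scaling, 17 members were negative and the member median was 0.045, beside 0.086 over all genes. On log2(FPKM + 1) the member median was 0.04, beside 0.062 over all genes. In 5 members (10.6%), Ndufa1, Ndufa2, Ndufa7, Ndufb9 and Ndufaf2, every heterozygote lay below every wild-type male, against 5.8% of all genes. In Ndufs7 and Ndufaf3 (2 members, against 4.56%) every heterozygote lay above.

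Homozygous against heterozygous males shared the homozygous animals with the first comparison, and its values are given beside that one rather than as further evidence. Here edgeR called 0 members (0% of all genes), and DESeq2 called 3, Ndufb3, Ndufaf3 and Ndufa5, among 515 of 16474 genes, while limma-voom called 0 genes. At an unadjusted p under 0.05, 12 members were lower (8.92% of all genes) and 0 higher (8.25%). The log2 fold change was negative for 42 members (49.6% of all genes) with a median of -0.193. Every homozygote lay below every heterozygote in 17 members (11.7% of all genes) and above in 1 (10.7% of all genes).

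**Figure D2:**
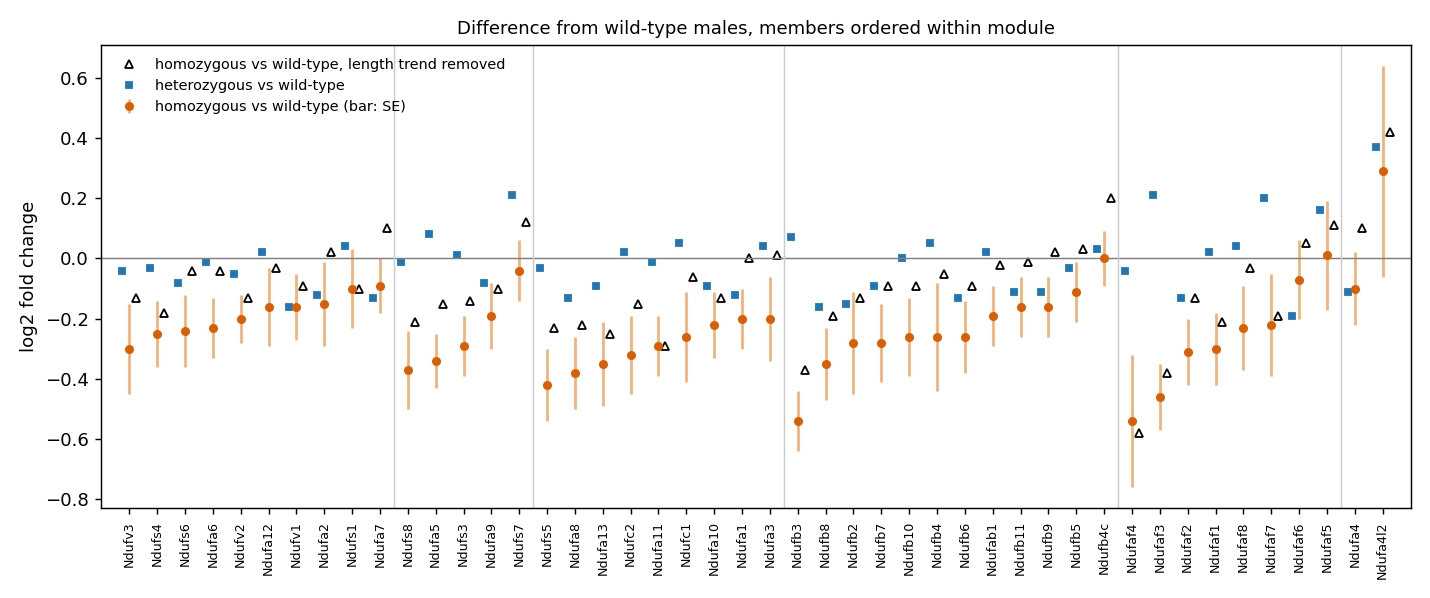
Log2 fold change against wild-type males for 46 of the 47 tested members, in panels from left to right for the N module, Q module, proximal arm, distal arm, assembly factors and other Nduf symbols. Circles with SE bars are homozygotes, triangles the same after removal of the length trend, and squares heterozygotes. Of the circles 43 lie below 0, and the median over the 47 moves from -0.233 to -0.093 for the triangles.

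The animals of the homozygous group differed among themselves. The median log2 deviation of the 47 members from the wild-type mean was -0.374 in homozygous male 1, -0.229 in male 2 and -0.082 in male 3. It was -0.009, -0.010 and 0.026 in the wild-type males and -0.002, -0.092 and -0.013 in the heterozygotes, so homozygous male 3 lay below all wild-type males but above the lowest heterozygote. The homozygous female, compared with wild-type males only, lay at -0.182. Heterozygous male 2, with clock genes like the homozygous males, was the lowest of the heterozygotes, and the female, with clock genes like wild type, lay between homozygous males 2 and 3. Wild-type male 1, whose Kupffer cell marker sum was above those of all homozygotes, lay with the other wild-type males. Each of these cases is 1 animal, and the part of clock genes or Kupffer cells in these values was not tested.

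Summed over the 38 subunit genes, the level was 3143, 3158 and 3289 CPM in wild-type males, 3155, 2926 and 3138 CPM in heterozygotes and 2580, 2743 and 3007 CPM in homozygous males. All 3 homozygotes lay below all 3 wild-type males, and homozygous male 3 lay within the range of the heterozygotes. On the TPM scale the same sum was 9014 ± 765 in wild type, 8868 ± 651 in heterozygotes and 8574 ± 566 in homozygotes (SD, n = 3), and the groups overlapped.

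**Figure D3:**
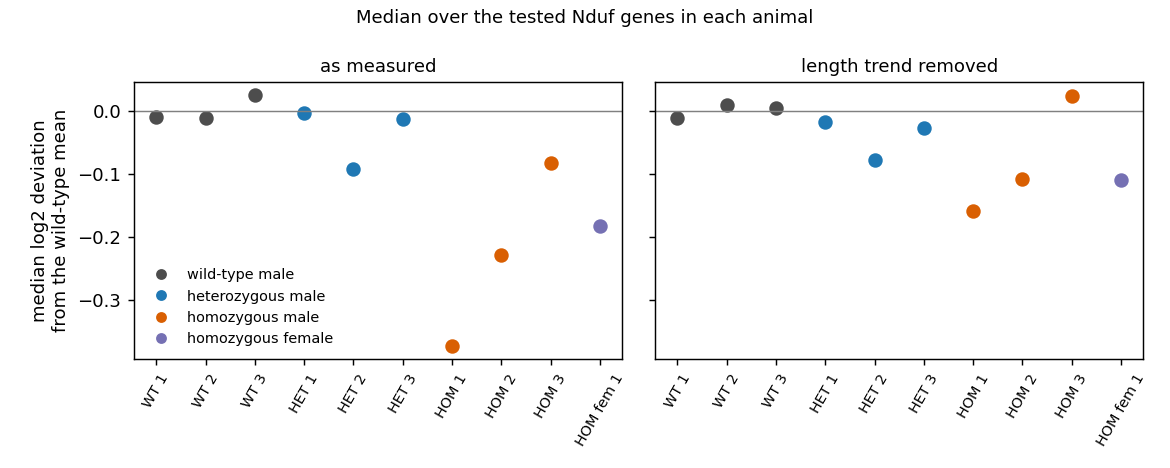
Median log2 deviation of the 47 tested members from the wild-type mean in each animal, as measured (left) and after removal of the length trend (right). Each point is 1 liver. On the left the 3 homozygous males lie at -0.374, -0.229 and -0.082, and on the right they lie at -0.158, -0.108 and 0.024.

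Transcript length differed between the homozygous males and the other males in these libraries. The Nduf transcripts are short, with a median effective length of 499 bases against 2625 bases for all genes tested. Over all genes, the log2 fold change of homozygotes against wild type was lower for shorter transcripts (Spearman rho of 0.247 across genes), with a median of -0.197 for genes of 300 to 600 bases and 0.063 for genes over 2400 bases. The members were at -0.279 (15 genes) and -0.320 (2 genes) in the same classes, and their own rho with length was 0.027 over 47 genes. The mean effective length of the whole library, weighted by FPKM, was 1351 ± 38.9 bases in wild type, 1310 ± 48.5 in heterozygotes and 1452 ± 11.3 in homozygotes (SD, n = 3), and 1452 in the female.

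After a smooth trend on length was removed from each library, the median of the members was -0.093 between homozygous and wild-type males, and 35 of 47 were negative (49.6% of all genes). Now 5 members were lower at an unadjusted edgeR p under 0.05 (7.15% of all genes), namely Ndufb3, Ndufaf3, Ndufaf4, Ndufs5 and Ndufa11, and 1 was higher (5.95%). Against heterozygotes the median was -0.051, with 30 members negative (50.2% of all genes), 6 lower (8.03%) and 4 higher (7.11%). The 6 were Ndufb3, Ndufaf3, Ndufa5, Ndufa11, Ndufaf4 and Ndufaf7, and the 4 included Ndufa4 and Ndufa7. In the heterozygous against wild-type comparison the median was -0.035 after removal and the rho of all genes with length was 0.011.

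**Figure D4:**
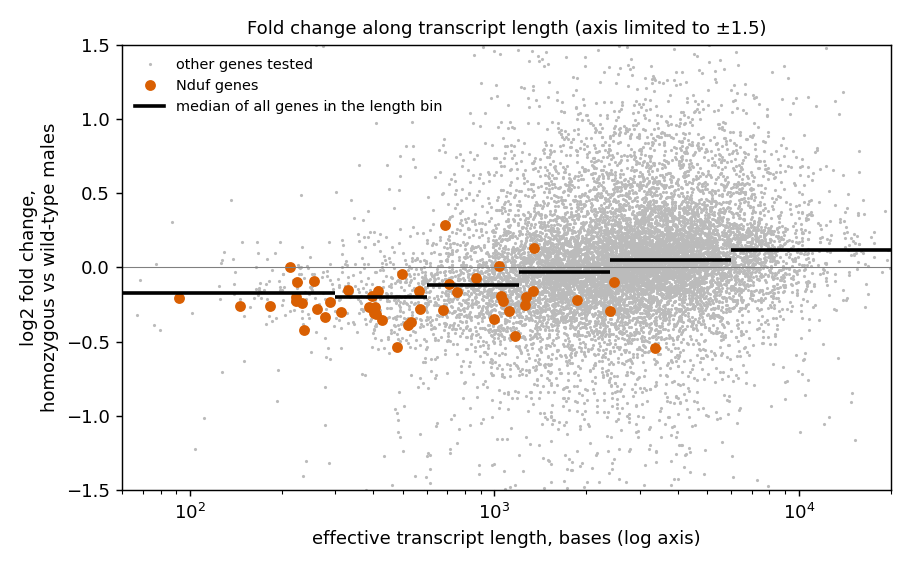
Log2 fold change between homozygous and wild-type males against effective transcript length (log axis) for all genes tested (grey) and the 47 Nduf genes (orange). Black lines are medians of all genes in 6 length classes. Short transcripts lie below 0 and long ones above, and most Nduf genes lie at or below the median of their class.

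In the N module, all 10 genes had a negative log2 fold change between homozygous and wild-type males, 2 of them (Ndufv2 and Ndufs4) with an unadjusted p under 0.05, and the module median was -0.181, or -0.066 without the length trend. Ndufv2, an iron-sulfur core subunit, had 78.9, 82.4 and 81.7 CPM in wild-type males, 80.4, 76.7 and 76.7 CPM in heterozygotes and 66.4, 72.6 and 72.2 CPM in homozygous males. All homozygous males lay below the other 6 males, with 76.5 CPM in the female. This corresponded to a log2 fold change of -0.20 (SE 0.08; edgeR adjusted p = 0.3), and -0.13 without the length trend. Ndufv1, the flavin-bearing subunit that takes electrons from NADH, had 165, 181 and 194 CPM in the 3 wild-type males and 166, 155 and 162 CPM in homozygotes, and these overlapped. Ndufs1, the largest iron-sulfur core subunit, had 119, 102 and 99.6 CPM in the 3 wild-type males and 94.1, 98.6 and 107 CPM in homozygotes, which also overlapped.

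In the Q module, 5 of 6 genes were negative and 3 had an unadjusted p under 0.05, with a module median of -0.240, or -0.121 without the length trend. Ndufa5, an accessory subunit (chromosome 6, 24518662 to 24527690), had 46.5, 44.4 and 49.2 CPM in wild-type males, 48.5, 47.8 and 51.6 CPM in heterozygotes and 34.6, 36.2 and 39.9 CPM in homozygous males. The homozygous males lay apart below both other groups, and the female had 42.6 CPM. Its log2 fold change was -0.34 (SE 0.09; edgeR adjusted p = 0.206) against wild type and -0.42 (SE 0.09; edgeR adjusted p = 0.109) against heterozygotes. Without the length trend these were -0.15 and -0.22.

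Ndufs8, a core subunit with iron-sulfur clusters, had 66.4, 68.1 and 65.6 CPM in wild-type males, 69.2, 63.8 and 65.5 CPM in heterozygotes and 41.2, 56.5 and 57.4 CPM in homozygous males. Homozygous male 1 was the lowest by a wide margin, and the homozygotes overlapped neither other group. Against wild type this was a log2 fold change of -0.37 (SE 0.13; edgeR adjusted p = 0.258), and -0.21 without the length trend. Ndufs3, a core subunit of the same module, had 120, 119 and 115 CPM in the 3 wild-type males and 89.2, 99.6 and 101 CPM in homozygotes, again without overlap. Its log2 fold change was -0.29 (SE 0.10; edgeR adjusted p = 0.26), and -0.14 without the length trend.

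Ndufs7, which carries the last iron-sulfur cluster before ubiquinone, had the smallest p of all members that were higher in heterozygotes than in wild type. Its levels were 58.0, 57.9 and 58.3 CPM in wild-type males, 73.9, 65.1 and 62.5 CPM in heterozygotes and 62.0, 50.3 and 56.4 CPM in homozygous males. Heterozygotes lay above all other males, and homozygotes overlapped wild type. Ndufs7 had a log2 fold change of 0.21 (SE 0.10; edgeR adjusted p = 0.972) between heterozygotes and wild type and -0.26 (SE 0.10; edgeR adjusted p = 0.253) between homozygotes and heterozygotes. The second value was -0.08 without the length trend.

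In the proximal membrane arm, all 9 genes were negative and 5 had an unadjusted p under 0.05, with a median of -0.291, or -0.151 without the length trend. Ndufs5 (chromosome 4, 123712710 to 123718186) and Ndufa8 (chromosome 2, 36036324 to 36049338) are accessory subunits on the intermembrane space side, with cysteine motifs that form disulfide bonds there. Ndufs5 had 56.1, 53.2 and 58.8 CPM in wild-type males, 55.7, 48.8 and 59.4 CPM in heterozygotes and 35.6, 42.9 and 46.8 CPM in homozygous males. All homozygotes, the female at 44.1 CPM included, lay below all other males. On the log2 scale Ndufs5 differed by -0.42 (SE 0.12; edgeR adjusted p = 0.214) against wild type and -0.39 (SE 0.12) against heterozygotes. Without the length trend these were -0.23 and -0.18.

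Ndufa8 had 84.7, 97.8 and 106 CPM in wild-type males, 95.7, 84.1 and 83.5 CPM in heterozygotes and 75.2, 66.7 and 78.9 CPM in homozygous males. The heterozygotes overlapped wild type, and the homozygous males lay below both groups. Ndufa8 thus had a log2 fold change of -0.38 (SE 0.12; edgeR adjusted p = 0.227), and -0.22 without the length trend.

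Ndufa11, a membrane subunit with a long transcript (effective length 2388 bases), had 37.1, 36.6 and 39.3 CPM in wild-type males, 39.9, 38.5 and 33.8 CPM in heterozygotes and 28.0, 30.4 and 33.9 CPM in homozygous males. Homozygotes lay below wild type, and homozygous male 3 overlapped the lowest heterozygote. For Ndufa11 the log2 fold change was -0.29 (SE 0.10; edgeR adjusted p = 0.26) with and without the length trend. Ndufc2, another membrane subunit, had 77.7, 75.7 and 76.5 CPM in the 3 wild-type males and 47.8, 66.7 and 69.8 CPM in homozygotes, with the female at 77.3 CPM among wild type. Ndufa13, also known as GRIM-19, had 122, 137 and 147 CPM in the 3 wild-type males and 87.7, 103 and 128 CPM in homozygotes, and these overlapped. Ndufa3 had 55.0, 48.8 and 47.7 CPM in the 3 wild-type males and 35.5, 43 and 52.8 CPM in homozygotes, with a log2 fold change of -0.20 (SE 0.14) that became 0.01 without the length trend.

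In the distal membrane arm, 11 of 12 tested genes were negative and 2 had an unadjusted p under 0.05, with a median of -0.260, or -0.069 without the length trend. Ndufb3, an accessory subunit (chromosome 1, 58586397 to 58595964), had the smallest p-value of all members. Its levels were 49.0, 45.9 and 46.2 CPM in wild-type males, 47.1, 47.2 and 53.5 CPM in heterozygotes and 28.7, 34.0 and 34.3 CPM in homozygous males, and 36.2 CPM in the female. All 4 homozygotes lay below all 6 other animals.

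Against wild type, Ndufb3 had a log2 fold change of -0.54 (SE 0.10; edgeR adjusted p = 0.147), a level 0.689 times that of wild type. Against heterozygotes it was -0.61 (SE 0.10; edgeR adjusted p = 0.104). DESeq2 gave adjusted p-values of 0.00156 and 0.000171 for the same comparisons. Without the length trend the values were -0.37 and -0.44, and over all 23 alternatives they ranged from -0.58 to -0.37 and from -0.65 to -0.44.

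Ndufb8, a further accessory subunit of the distal arm, had 117, 123 and 132 CPM in wild-type males, 105, 103 and 122 CPM in heterozygotes and 82.4, 101 and 106 CPM in homozygous males. Homozygotes lay below wild type and overlapped heterozygotes, with a log2 fold change of -0.35 (SE 0.12; edgeR adjusted p = 0.259). Ndufb9, an LYR-motif subunit, had 163, 163 and 168 CPM in the 3 wild-type males and 144, 136 and 162 CPM in homozygotes, a log2 fold change of -0.16 (SE 0.10) without overlap but with a narrow gap. Without the length trend the log2 fold change of Ndufb9 was 0.02. Ndufb11, on the X chromosome, overlapped between the groups, at 111 ± 5.84 CPM in the 3 wild-type males and 98.8 ± 9.10 CPM in homozygous males (SD, n = 3).

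Reads of Ndufb4 and its copies Ndufb4b and Ndufb4c cannot be assigned with certainty, since the sequences are near-identical. Ndufb4c took 51.9% to 63.8% of the sum of these 3 genes, which was 51.1 to 66.4 CPM over the 10 livers. The log2 fold change between homozygous and wild-type males was 0.00 for Ndufb4c and -0.26 for Ndufb4, and values of single members of this trio carry that uncertainty. Ndufb4c was the 1 member higher at an unadjusted edgeR p under 0.05 against wild type after removal of the length trend, and among the 4 higher against heterozygotes.

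**Figure D5:**
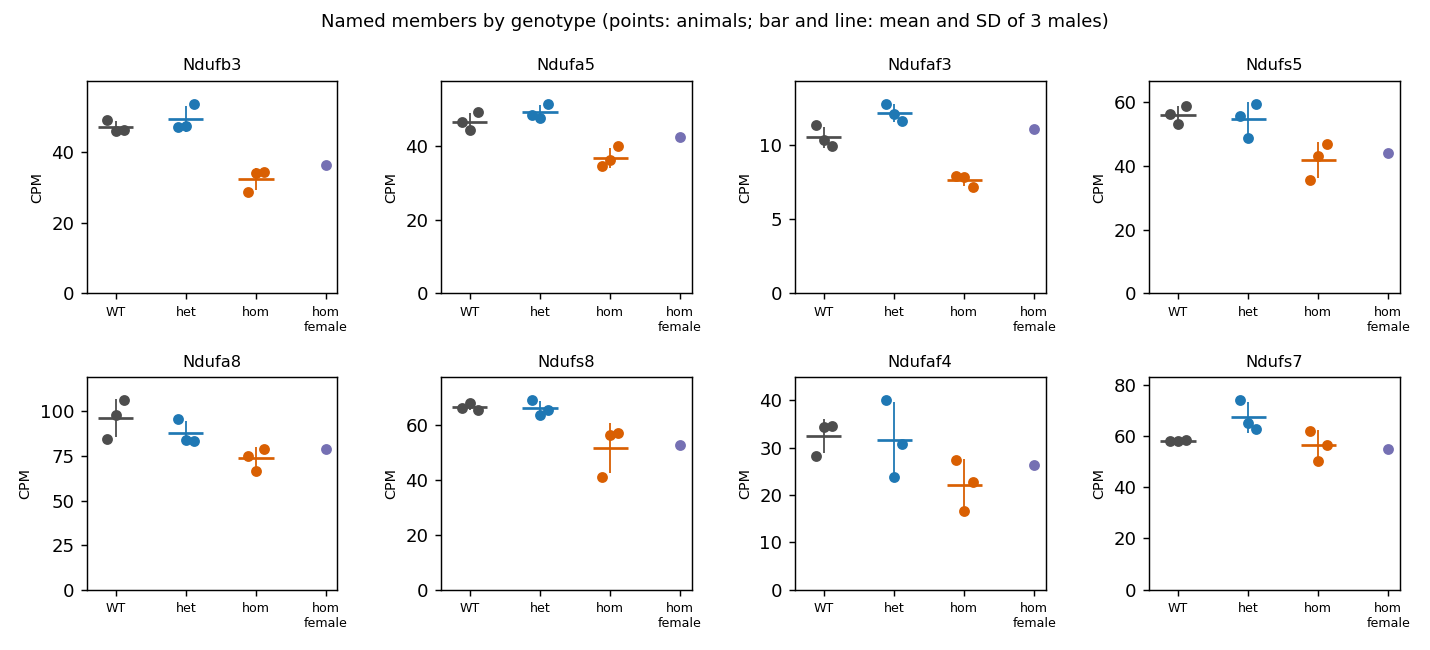
CPM of 8 members in wild-type, heterozygous and homozygous males and the homozygous female. Points are animals, horizontal lines group means and vertical lines SD (n = 3). Homozygous males lie below both other groups in Ndufb3, Ndufa5, Ndufaf3, Ndufs5, Ndufa8 and Ndufs8, while Ndufaf4 overlaps heterozygotes and Ndufs7 overlaps wild type.

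Among the 8 assembly factors, 7 were negative between homozygous and wild-type males and 4 had an unadjusted p under 0.05, with a median of -0.260, or -0.162 without the length trend. Their transcripts are longer than those of the subunits, with a median effective length of 1075 bases. Against wild type, heterozygotes had a median of 0.034, with 3 negative and 5 positive.

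Ndufaf3, which acts early in the assembly of the Q module (chromosome 9, 108565587 to 108567436), had 11.3, 10.4 and 9.91 CPM in wild-type males, 12.8, 12.1 and 11.6 CPM in heterozygotes and 7.88, 7.85 and 7.17 CPM in homozygous males. The 3 male groups did not overlap, with heterozygotes the highest, and the homozygous female stood among wild type at 11.1 CPM. On the log2 scale Ndufaf3 differed by -0.46 (SE 0.11; edgeR adjusted p = 0.187) against wild type and -0.67 (SE 0.11; edgeR adjusted p = 0.104) against heterozygotes. Against heterozygotes DESeq2 gave an adjusted p of 0.00205. Without the length trend the values were -0.38 and -0.59. Counts were low, between 119 and 208 per library.

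Ndufaf4, the partner of Ndufaf3 in that step, was more variable, with 28.3, 34.4 and 34.5 CPM in wild-type males, 40.0, 23.8 and 30.7 CPM in heterozygotes and 27.3, 16.6 and 22.7 CPM in homozygous males. Homozygotes lay just below wild type and overlapped heterozygotes. Ndufaf4 had a log2 fold change of -0.54 (SE 0.22; edgeR adjusted p = 0.298), and -0.58 without the length trend. The transcript is long for this family, with an effective length of 3359 bases.

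Ndufaf2, a late factor related in sequence to the subunit Ndufa12, had 12, 12.6 and 11.3 CPM in wild-type males, 10.6, 10.9 and 11.2 CPM in heterozygotes and 9.20, 10.4 and 9.40 CPM in homozygous males, so that the 3 groups did not overlap and heterozygotes lay between. Its log2 fold change was -0.31 (SE 0.11; edgeR adjusted p = 0.26) between homozygotes and wild type, and -0.13 without the length trend. Ndufaf1, which helps to build the membrane arm, had 31.6 ± 4.25 CPM in the 3 wild-type males and 25.7 ± 1.44 CPM in homozygotes (SD, n = 3), with overlap. It had a log2 fold change of -0.30 (SE 0.12; edgeR adjusted p = 0.304), and -0.21 without the length trend.

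Ndufaf7, a methyltransferase that acts on a core subunit, had 14.7, 12.5 and 11.4 CPM in wild-type males, 13.8, 13.8 and 16.8 CPM in heterozygotes and 8.97, 13.5 and 10.7 CPM in homozygous males. Homozygotes overlapped wild type and lay below heterozygotes, with a log2 fold change of -0.42 (SE 0.17; edgeR adjusted p = 0.26) in the latter comparison. Ndufaf5 had 3.65 ± 0.293, 4.09 ± 0.278 and 3.67 ± 0.455 CPM over the wild-type, the heterozygous and the homozygous males (SD, n = 3), and the groups overlapped. Ndufaf6 had 12, 13.0 and 10.8 CPM in the 3 wild-type males and 10.9, 10.2 and 10.2 CPM in heterozygotes, a log2 fold change of -0.19 (SE 0.13; edgeR adjusted p = 0.972) that was 0.12 when only curated transcripts were counted. Its reads were spread over 14 transcripts, of which 1 is curated.

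Ndufa4 had 257, 267 and 288 CPM in wild-type males, 260, 233 and 257 CPM in heterozygotes and 221, 253 and 284 CPM in homozygous males. The groups overlapped, and the log2 fold change between homozygous and wild-type males was -0.10 (SE 0.12), or 0.10 without the length trend.

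The 48 members had 102 transcripts in the table, 69 of them curated, and 23 members had a single one. Of the 25 members with more, 14 had a leading transcript that held over 90% of the gene's TPM and 10 had a second transcript above 10%. Ndufv3 has a short and a long form, and the short one held 92.2% ± 2.17 of TPM in wild-type, 90.9% ± 1.58 in heterozygous and 91.4% ± 1.02 in homozygous males (SD, n = 3). The forms of Ndufb11 were less even between groups. The form with the longer effective length held 20.1%, 16.6% and 17% in wild-type males, 19.9%, 19.9% and 21.4% in heterozygotes, 34.8%, 25.8% and 22.8% in homozygous males and 17.7% in the female. Homozygous males lay above the other males in this share, the female lay among wild type, and no test was made. Copies of 1 transcript at several positions were given equal shares, 25% for each of 4 copies in Ndufa7 and 50% for each of 2 in Ndufs3, so only their gene sums are used.

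Further genes of complex I assembly came from a list of 14 genes in the table. Between homozygous and wild-type males 11 (78.6%) were negative, against 49.3% of all genes, and 3 positive, with a median of -0.162 (-0.078 without the length trend). By edgeR 0 were called (0% of all genes). At an unadjusted p under 0.05, 1 (7.14%), Tmem126a, was lower, against 8.08% of all genes. Tmem126a, an assembly factor of the membrane arm, had a mean of 22.5 CPM in the 3 wild-type males and 19.1 CPM in homozygotes. Its log2 fold change was -0.24 (edgeR adjusted p = 0.318), and -0.07 without the length trend. Against heterozygotes, 3 genes (21.4%) were lower at an unadjusted edgeR p under 0.05, against 8.92% of all genes. Tmem126a (-0.26) was joined by Dmac1 (-0.44; edgeR adjusted p = 0.194) and Tmem186 (-0.37; edgeR adjusted p = 0.199), both factors of the membrane arm. Without the length trend the 3 values were -0.09, -0.27 and -0.38.

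Among 10 known regulators of respiratory chain genes, 3 (30%) were negative between homozygous and wild-type males, against 49.3% of all genes, and 7 were positive. Their median was 0.149. By edgeR 0 were called (0% of all genes). At an unadjusted p under 0.05, 1 of the 10 was lower, against 8.08% of all genes, and 1 higher, against 6.82%. Ppargc1b, a coactivator of mitochondrial biogenesis, averaged 22.4 CPM in wild-type males, 17.7 CPM in heterozygotes and 10.3 CPM in homozygous males, with a log2 fold change of -1.11 between the outer groups (edgeR adjusted p = 0.206). Ppargc1a, its relative, averaged 11.5, 6.97 and 16.7 CPM, and its log2 fold change was 0.54 against wild type (edgeR adjusted p = 0.302) and 1.26 against heterozygotes (edgeR adjusted p = 0.104). Nrf1, Gabpa, Yy1 and Esrra, whose recognition letters were searched above, had log2 fold changes of 0.24, 0.17, 0.01 and -0.12 between homozygous and wild-type males, with edgeR adjusted p-values from 0.369 to 0.97. The part of these regulators in the levels of Nduf genes was not tested.

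The subunits of complexes II to V encoded in the nucleus (46 genes, 42 tested) are given beside the Nduf genes. Between homozygous and wild-type males 39 were negative, and 11 (26.2%, against 8.08% of all genes) were lower at an unadjusted edgeR p under 0.05. The median was -0.212, or -0.056 without the length trend. The corresponding values of the Nduf genes were 43, 16 (34.0%), -0.233 and -0.093. Between homozygous and heterozygous males 37 of the 42 were negative and 3 (7.14%, against 8.92% of all genes) were lower at an unadjusted edgeR p under 0.05. The median was -0.158 (0.008 without the length trend). The Nduf genes had 42, 12 (25.5%) and -0.193 (-0.051) there. Between heterozygous and wild-type males 38 (90.5%) were negative with a median of -0.066, beside 29 (61.7%) and -0.033 for the Nduf genes. These differences between the families were not tested. The median effective length was 432 bases in that list.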

How the data were processed

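Liver RNA of 10 mice was sequenced, and the authors deposited 1 table of transcripts. Its expected counts are the authors' estimates of reads per transcript, deposited without normalisation or rounding. The FPKM values were scaled by the authors to transcript length and library total, and the deposited TPM values to a fixed sum per library. HISAT and Bowtie2 and the build GRCm38.p6 come from the submitters' processing notes; the counting program, tool versions and strand use were not given in the sources used here. A further 9 columns of group means were not used.

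Transcripts were summed to 19271 genes by identifier and rounded. The 9 males were fitted together in edgeR 4.0.16 (R 4.3.3; quasi-likelihood test, TMM factors, filter on low counts by group), with genotype as the only term and 6 residual degrees of freedom. P-values were adjusted by Benjamini-Hochberg over 12427 genes, and the script was tested on simulated data. The female entered only an alternative fit of all 10 libraries. CPM uses TMM factors over 10 libraries. The length trend was a loess curve (span 0.4) of log2 deviation on log length per library, used as an offset. It removes any difference that follows length, whether technical or biological. DESeq2 1.42.0 and limma 3.58.1 served as alternatives, with log2(TPM + 1) added after seeing the data. The authors' program split reads that fit several near-identical genes. Precision is limited by 3 animals per genotype.

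The members and lists were chosen with earlier results of these data known. Genes to be named were, per comparison, up to 10 members per direction with the smallest unadjusted p under 0.05 (or the single smallest), the leading member of each module, the 3 most and 3 least abundant, the 3 most variable, and listed assembly factors under that p. Ndufv1, Ndufs1, Ndufs4, Ndufa1, Ndufa2, Ndufa7, Ndufa13, Ndufb9, Ndufb11, Ndufv3, Ndufaf8 and the regulators were named after their values were seen. The values of 1 member are not reported here.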

Additional observations from a re-analysis of the deposited data

How the results depend on the processing

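Of 23 alternatives, DESeq2 changed the count of called members, to 1 (Ndufb3) between homozygous and wild-type males and to 3 between homozygous and heterozygous males; the count stayed 0 under every other alternative and, in all of them, for heterozygotes against wild type. The member median between homozygous and wild-type males was -0.093 with the length trend removed, beside 0.003 over all genes. On log2(TPM + 1) it was -0.082, beside 0.135 over all genes. Between homozygous and heterozygous males it was -0.051, beside -0.001, with the length trend removed. On log2(TPM + 1) it was -0.07 there, beside 0.106. Ndufaf6 between heterozygotes and wild type turned to 0.12 with curated transcripts only. For each of these the cause was not tested. Leaving out 1 animal at a time, the medians ranged from -0.318 to -0.154, from -0.257 to -0.131 and, for heterozygotes against wild type, from -0.057 to -0.012. The count of members lower at an unadjusted p under 0.05 ranged from 8 to 23 between homozygous and wild-type males. That count, 16 in the fit reported, was 9 with library size alone, 9 on log2(FPKM + 0.1), 5 with the length trend removed and 1 on log2(TPM + 1); against heterozygotes, 12 became 6 and 2 under the last pair. Negative members between heterozygotes and wild type went from 29 to 17 with library size alone, where the median of all genes was 0.086.

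With the replicate number as a block (replicate block), 0 members were called in each comparison, the medians were -0.232, -0.197 and -0.036, and 14, 10 and 0 members were lower at an unadjusted p under 0.05. Same-numbered replicates share no stated origin, and their deviations from group means correlated at -0.419 to 0.181. Ndufb3 kept an unadjusted p under 0.05 in both comparisons of homozygotes under all 23 alternatives. Depth limits Ndufb4b (at most 12 counts) and Ndufa4l2.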
